A study of Mus musculus with 8 samples.

Results

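The genes of the piRNA pathway and of the chromatoid body, the perinuclear RNA granule of round spermatids, were followed in haploid male germ cells that carry a truncated form of the chromatin reader Brdt. They were listed by name and function, and the rule that picks them uses no measured value. The list held 32 names for 31 distinct genes, since Grth is an earlier symbol of Ddx25, and 28 of these were measured among 18193 genes on the array. Tdrd6, Fkbp6 and Spocd1 were not analysed here. Each gene was read by its brightest probe set, the group of array probes for a single gene, and all values are log2 intensities. Where 4 values of a group are listed, they follow the array numbers 1 to 4. The mutant mice carried the BrdtΔBD1 allele. Brdt is a bromodomain protein of male germ cells that binds acetylated histones, and the allele removes its first bromodomain. Both groups were adults of the 129 Sv/Ev strain, 2 to 4 months old, and the labels name the other group as control with no further genotype. Cells were purified on an albumin gradient, and each of the 4 mutant and 4 control arrays received RNA from the pooled cells of 7 animals. The comparison asks which transcripts differ when that domain is missing.

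PIWI-interacting RNAs (piRNAs) are small RNAs of animal germ cells that guide PIWI proteins to transposon transcripts and to other RNAs. Long precursors are cut at the surface of mitochondria, loaded into PIWI proteins, trimmed at the 3' end and methylated there. PIWI proteins carry methylated arginines that are bound by proteins with Tudor domains, and both kinds of protein gather in germ granules. In mouse testis most of this machinery is made in meiotic cells, and many of its proteins persist in the chromatoid body of round spermatids.

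In its brightest probe set Brdt itself read 11.09, 10.68, 10.29 and 10.62 in the mutants and 12.13, 12.24, 11.72 and 12.25 in the controls. The position of the probes relative to the deletion is unknown, which leaves the labels unchecked. Of 20 genes that mark round spermatids 19 were measured, and their mean lay between 13.28 and 13.52 on mutant and between 13.26 and 13.52 on control arrays. The mean of 22 Sertoli cell markers was 5.62 to 7.26 on mutant and 4.74 to 5.54 on control arrays, and 6 of the 22 rose (Aard, Cldn11, Cst12, Defb19, Fabp5 and Vim) and 0 fell, with 9 apart between the groups. Defb19 averaged 11.41 against 8.41 and Fabp5 7.73 against 3.72, while Sox9 (3.80 and 3.80) and Fshr (2.51 and 2.41) were low in both groups. Markers of spermatocytes, the cells in which the piRNA machinery is most active, averaged 7.73 to 8.70 on mutant and 7.63 to 8.08 on control arrays, with 0 of 22 past the threshold used here, an adjusted p under 0.05; at an unadjusted p under 0.05, 8 of the 22 were higher and 1 lower (limma). Spermatogonia markers averaged 4.14 to 4.52 against 3.63 to 3.94 (1 of 22 rose) and Leydig cell markers 4.54 to 5.19 against 3.67 to 4.11 (2 of 9 rose). Peritubular, vascular and blood cell markers averaged 3.24 to 3.86 against 3.08 to 3.22 (1 of 19 rose). Of all genes 1.86% rose. Under 4 in both groups were 13 of the 22, 6 of the 9 and 14 of the 19. The Leydig cell markers that rose were Aldh1a1 and Gsta2, while Cyp11a1, Cyp17a1, Hsd3b1, Hsd17b3 and Star did not pass and were under 4. The part of other cells in the results below was not tested, and in such bulk samples a change in the mix of cells and a change of RNA per cell cannot be told apart. Control arrays 1 and 3 differed from the rest in RNA integrity, with 3' minus 5' differences of the Gapdh control probe sets of 1.68 and 2.05, against 0.33 to 0.94 on the other 6 arrays.

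In the main fit, which does not pair the arrays, none of the 28 listed genes passed the adjusted threshold between mutant and control spermatids. Of the 28 genes, 0 rose and 0 fell in limma, where 1.86% of all genes rose and 1.85% fell, 3.71% in either direction. At an unadjusted p under 0.05, 4 were higher (Stk31, Mov10l1, Wdr77 and Snd1) and 1 was lower (Tssc4), beside 11.0% and 9.16% of all genes. The median difference, mutant minus control, was 0.20 over the 28 genes and -0.022 over all genes, and 20 of the 28 differences were above 0. Same-numbered mutant and control arrays deviated together, so the replicate number pairs them. With that number as a block in the model, 2 of the 28 genes rose, Stk31 and Snd1, and 1 fell, Tssc4. Those shares are close to the 6.60% of all genes that rose and the 4.94% that fell in the same fit.

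**Figure D1:**
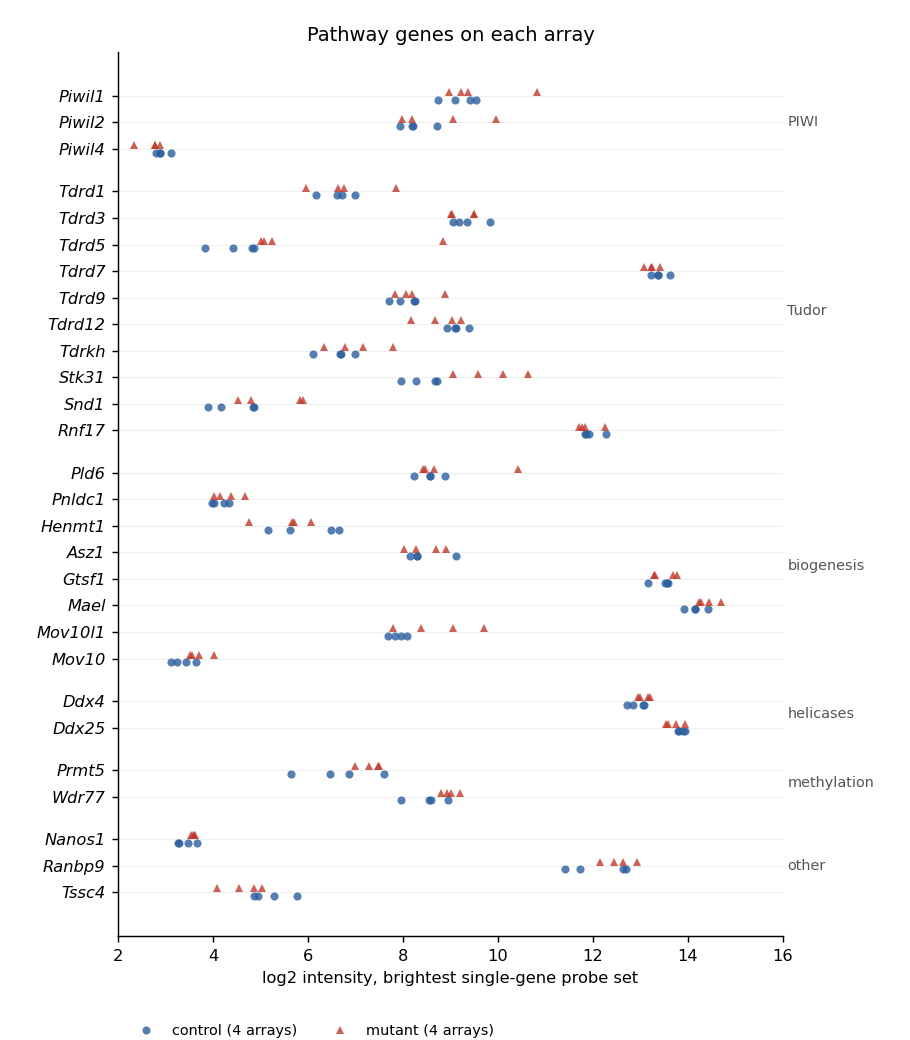
Log2 intensity of the 28 genes (rows, grouped by role) on the 4 control arrays (blue circles) and the 4 mutant arrays (red triangles). The groups overlap for 26 genes and are apart for Stk31 and Tdrd5, and a single mutant point lies far to the right for Tdrd5, Pld6 and Piwil1.

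**Figure D2:**
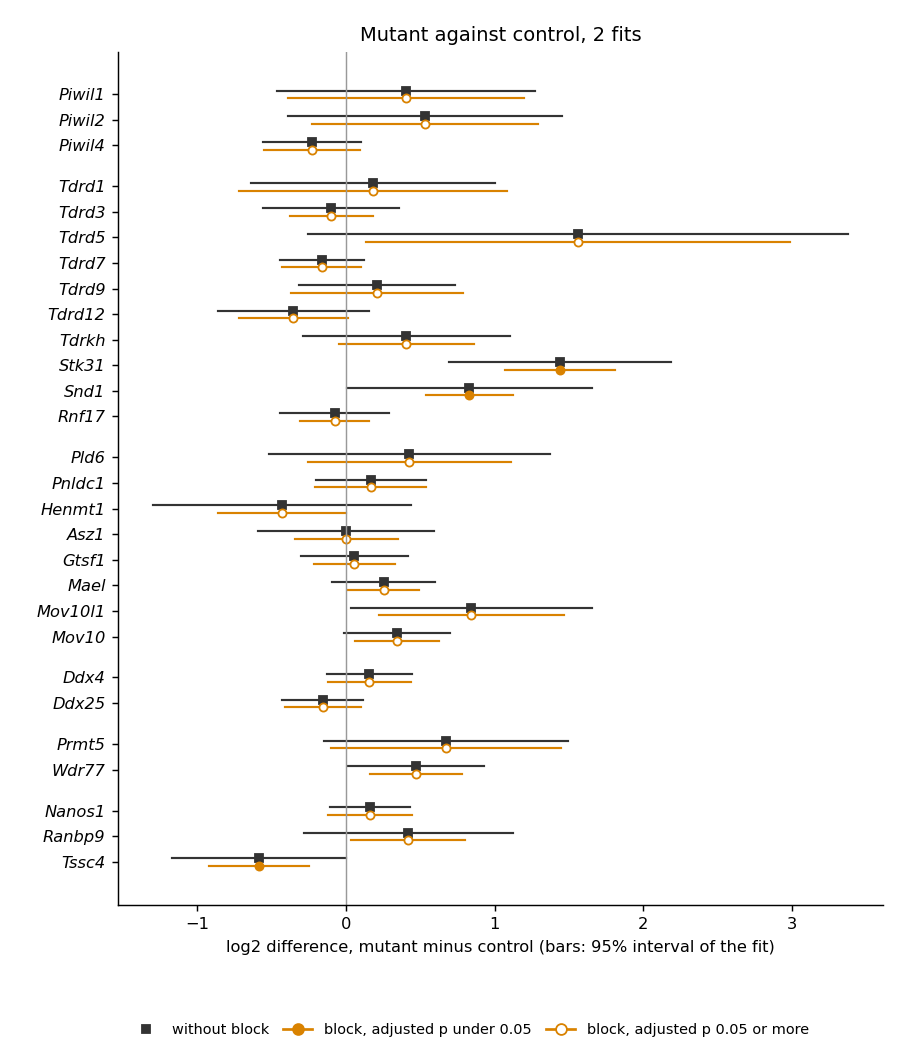
Log2 difference, mutant minus control, of each of the 28 genes with the 95% interval of limma without a block (black squares) and with the replicate number as a block (orange, filled where the adjusted p was under 0.05). Filled points mark Stk31 (1.44), Snd1 (0.83) and Tssc4 (-0.58).

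Stk31, a germ cell protein with a Tudor domain and a kinase-like domain, had the difference with the smallest p of the 28. Its brightest probe set read 10.11, 10.64, 9.58 and 9.05 in the mutants and 8.67, 8.72, 8.28 and 7.96 in the controls. Every mutant array lay above every control array, and the mutant array was the higher in all 4 pairs. The means were 9.85 ± 0.68 in mutant and 8.41 ± 0.36 in control arrays (SD, n = 4 each), a 2.71-fold higher level in mutants, and the log2 difference of 1.44 (SE 0.33) had an adjusted p of 0.0501 in limma, just above the threshold. With the replicate block the adjusted p was 0.0065. Its other probe set read 10.06, 10.22, 9.50 and 9.03 in the mutants and 8.36, 8.31, 7.98 and 7.58 in the controls, and its difference of 1.65 (SE 0.28) passed the threshold over all probe sets (adjusted p = 0.032, limma). Groups without overlap were found for 2 of the 28 genes, Stk31 and Tdrd5, both higher in mutants, and for 0 with mutants lower; of all genes 6.15% were apart with mutants higher and 6.49% with mutants lower, 12.6% in either direction. The marker mean in mutant arrays was 0.38 higher for spermatocytes, 0.49 for spermatogonia, 1.52 for Sertoli cells and 0.89 for Leydig cells. It was 0.29 higher for peritubular, vascular and blood cells, and the round spermatid marker mean differed by -0.054. The part of such cells in the Stk31 readings was not tested.

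The Stk31 start region is shown because both probe sets of the gene gave a difference above 1. The 250 bases before its most upstream RefSeq start in GRCm38.p6 (chr6:49395289-49395538, plus strand) read as follows, with an E-box, the letters CACGTG read by basic helix-loop-helix proteins, in capitals.
Stk31: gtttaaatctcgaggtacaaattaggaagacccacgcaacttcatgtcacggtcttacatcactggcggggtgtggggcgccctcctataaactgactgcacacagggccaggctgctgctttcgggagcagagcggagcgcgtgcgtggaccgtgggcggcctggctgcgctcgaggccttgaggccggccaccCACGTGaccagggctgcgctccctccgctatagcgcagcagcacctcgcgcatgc

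Tdrd5, a Tudor protein needed for assembly of the chromatoid body and for retrotransposon silencing, was the other gene whose groups did not overlap. It read 5.08, 8.85, 5.24 and 4.999 in the mutants and 4.42, 4.86, 3.83 and 4.81 in the controls. Mutant array 2 stood 3.75 above the mean of the other mutant arrays, which lay within 4.999 and 5.24. The difference of 1.56 (SE 0.80) did not pass (adjusted p = 0.32; 0.15 with the block, limma), and without mutant array 2 it was 0.63 (SE 0.25, adjusted p = 0.19).

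Snd1, a nuclease-like Tudor protein found in many cell types, read 4.53, 4.80, 5.82 and 5.90 in the mutants and 3.88, 4.15, 4.86 and 4.83 in the controls. The mutant array was the higher in all 4 pairs, by 0.64 to 1.07, while the groups overlapped because arrays 3 and 4 of both groups read higher than arrays 1 and 2. The difference of 0.83 (SE 0.36) had an adjusted p of 0.24 in limma and of 0.014 with the block (SE 0.12). Its other 2 probe sets were low on all arrays and differed by 0.043 and 0.13. With the Sertoli marker mean as a covariate the Snd1 difference was -0.15 (SE 0.56). That marker mean did not overlap between the groups, so the covariate and the group are poorly separated in this fit.

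Among the remaining Tudor genes none passed with or without the block (limma). Tdrkh, which is anchored in mitochondria and binds PIWI proteins during trimming, read 7.01 against 6.61 (mutant against control means) and was higher in the mutant of all 4 pairs. Its difference of 0.41 was 0.15 without mutant array 2, 0.63 without mutant array 4 and 0.24 without control array 4. Tdrd12, a helicase-like partner in secondary piRNA production, read 8.78 against 9.13, and Tdrd9, a helicase with a Tudor domain, read 8.24 against 8.03. Tdrd1, a partner of Piwil2, read 6.80 against 6.62 and Tdrd3, which binds methylated histones and a topoisomerase, 9.26 against 9.36. Rnf17, a RING-finger and Tudor protein needed for spermatid development, differed by -0.075 in its brightest probe set and by 0.22, 0.10 and 0.083 in the other 3.

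**Figure D3:**
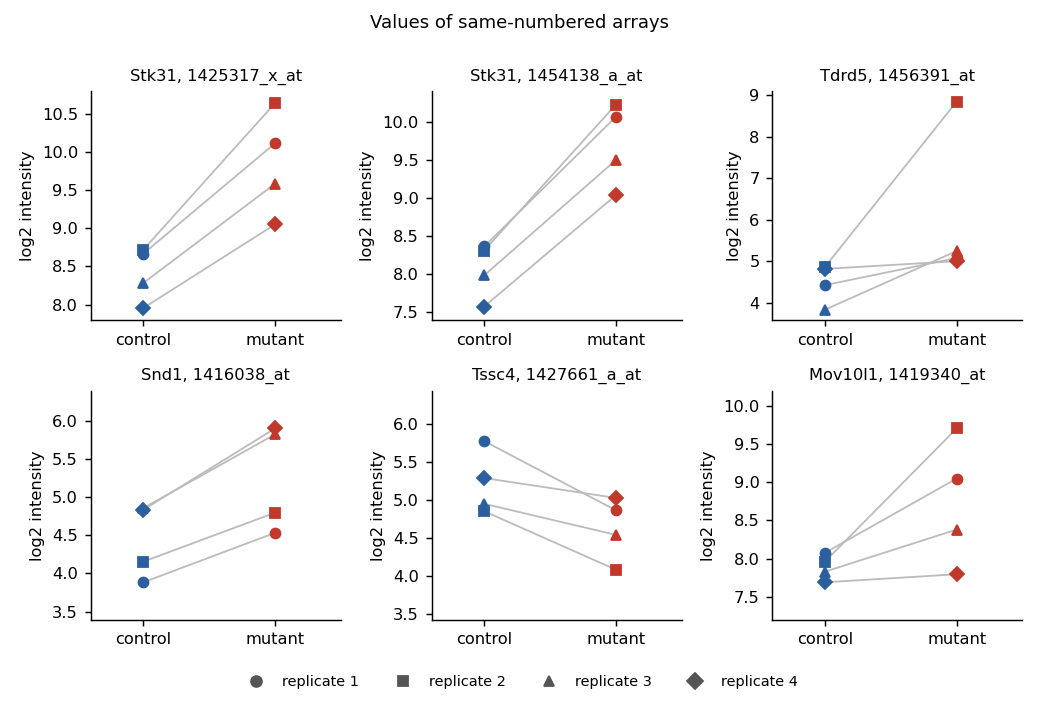
Log2 intensity of 5 genes on control and mutant arrays, with a line joining arrays of the same replicate number and a symbol for each number. Stk31 is shown in both of its probe sets. All lines slope upward for Stk31, Tdrd5, Snd1 and Mov10l1 and downward for Tssc4. The line of pair 2 is the steepest for Tdrd5, for Mov10l1 and for both probe sets of Stk31.

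The PIWI proteins bind the piRNAs themselves. Piwil1 (MIWI), the PIWI protein of meiotic and haploid cells, read 9.36, 10.83, 8.98 and 9.23 in the mutants and 9.55, 9.09, 8.75 and 9.40 in the controls. Mutant array 2 was the highest and the other mutant arrays lay among the controls. The Piwil1 difference was 0.40 with an interval of -0.47 to 1.27, and -0.0062 without that array. Piwil2 (MILI) showed the same array as its highest, at 9.97, and differed by 0.53 (95% interval -0.39 to 1.46), or 0.14 without it. Piwil4 (MIWI2), the nuclear PIWI protein of fetal germ cells, was near the floor in both probe sets, at 2.68 against 2.91 in the brighter. None of the 3 passed in limma (adjusted p from 0.43 to 0.63).

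Of the genes of piRNA production, Mov10l1, the germline helicase that feeds precursors into processing, read 9.05, 9.71, 8.38 and 7.79 in the mutants and 8.08, 7.96, 7.83 and 7.69 in the controls. It was higher in the mutant of all 4 pairs, with the groups overlapping at mutant array 4. The difference of 0.84 (SE 0.36) did not pass in limma (adjusted p = 0.23; 0.090 with the block), and it was 0.52 without mutant array 2. Its somatic relative Mov10 was under 4 in both groups, at 3.69 against 3.35, and its second probe set differed by -0.034. The mitochondrial endonuclease gene Pld6 read 8.99 against 8.56, the trimmer Pnldc1 4.30 against 4.14, and Henmt1, which methylates the 3' end of piRNAs, 5.55 against 5.98. Asz1, a mitochondrial scaffold of germ granules, had a difference of 0.00055 (95% interval -0.59 to 0.59).

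The 4 genes chosen for their high readings did not pass in either fit. Mael, a germ granule protein of piRNA biogenesis, read 14.45, 14.71, 14.23 and 14.27 in the mutants and 14.16, 14.43, 13.91 and 14.15 in the controls. The mutant array was the higher in all 4 pairs, by 0.12 to 0.32, with overlapping groups and a difference of 0.25 (SE 0.15) (adjusted p = 0.41; 0.16 with the block, limma), or 0.16 without mutant array 2. Ddx25, a gonadotropin-regulated helicase needed for spermatids to progress, read 13.54, 13.95, 13.58 and 13.76 in the mutants and 13.82, 13.90, 13.80 and 13.94 in the controls. Its difference was -0.16 with a 95% interval of -0.43 to 0.11. Gtsf1, a zinc-finger cofactor of PIWI proteins, read 13.78, 13.68, 13.28 and 13.32 in the mutants and 13.58, 13.56, 13.17 and 13.53 in the controls. Its groups overlapped almost fully, with a difference of 0.056 (-0.30 to 0.42), and its second probe set gave 0.080. Tdrd7, a Tudor protein of the chromatoid body, read 13.26, 13.41, 13.08 and 13.22 in the mutants and 13.63, 13.38, 13.24 and 13.38 in the controls, with a difference of -0.16 (-0.44 to 0.12). Ddx4, the vasa helicase that marks the chromatoid body, read 13.08 against 12.92, with a difference of 0.16 (-0.13 to 0.44). For Ddx25, Gtsf1, Tdrd7 and Ddx4 these intervals exclude a 2-fold change in either direction on the array's scale.

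Prmt5 and Wdr77 encode the enzyme and the partner subunit that make the symmetric arginine methylation bound by Tudor proteins. Prmt5 read 7.48, 7.496, 7.28 and 6.99 on mutant arrays and 7.60, 5.64, 6.45 and 6.86 on control arrays, with control array 2 the lowest, and differed by 0.67 (SE 0.36), with an adjusted p of 0.35 (0.23 with the block, limma). Without control array 2 the difference was 0.34, and without control array 1 it was 0.99. Wdr77 was higher in the mutant of all 4 pairs, at 8.98 against 8.51, with a difference of 0.47 (SE 0.20) and an adjusted p of 0.23 (0.068 with the block, limma), or 0.29 without control array 3. Its other probe sets differed by 0.23 and 0.45.

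Tssc4, known as an assembly factor of a spliceosomal particle, was the gene that fell with the block. It read 4.86, 4.08, 4.54 and 5.02 in the mutants and 5.77, 4.85, 4.95 and 5.29 in the controls. The mutant array was the lower in all 4 pairs, with overlapping groups. The difference of -0.58 (SE 0.26) had an adjusted p of 0.25 in limma and 0.047 with the block, and with pair 2 left out of that fit it was 0.10. Ranbp9, a scaffold protein, read 12.54 against 12.13 with a difference of 0.42, and 0.49 in its second probe set. Nanos1, an RNA-binding translation repressor, was under 4 in both groups, at 3.58 against 3.42, and its second probe set differed by -0.017.

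Many of the 28 genes also varied together within the mutant group. On mutant array 2, 24 of the 28 genes read above the mean of the other 3 mutant arrays, beside 49.5% of all genes and 43% of the 8998 genes with a mean of at least 4. The median excess was 0.41 over the 28 genes, against -0.0050 over all genes and -0.095 over those with a mean of at least 4. It was above 1, a 2-fold higher reading, for 8 of the 28, beside 2.03% of all genes and 3.88% of those with a mean of at least 4. The 8 were Tdrd5 (3.75), Pld6 (1.90), Piwil1 (1.64), Piwil2 (1.56), Tdrd1 (1.40), Mov10l1 (1.30), Stk31 (1.06) and Tdrkh (1.03). These values describe a single array of 7 pooled animals and were looked at after the values were seen, so they carry no test. In 44 other pathway genes, described below, mutant array 2 did not stand out from mutant array 1. On mutant array 2, 27 of the 44 read above the mean of the other mutant arrays (median excess 0.27). On mutant array 1 it was 32 of the 44 (median excess 0.27), and each of these arrays was the highest of all 8 for 15.

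**Figure D4:**
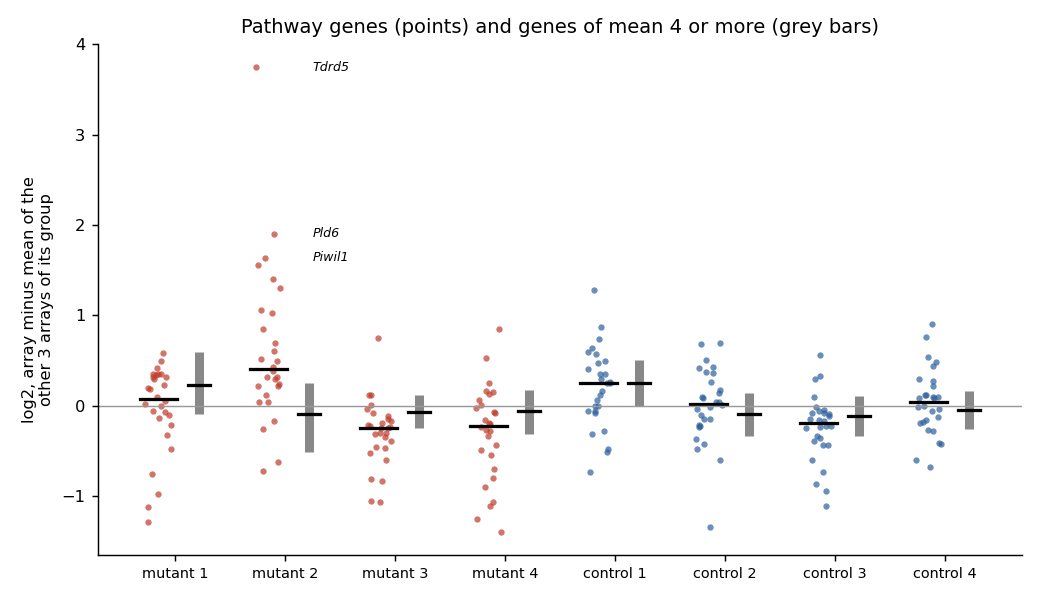
For each array, the log2 difference between its value and the mean of the other 3 arrays of its group. Points are the 28 pathway genes with their median as a black line, and grey bars span the middle 50% of genes with a mean of at least 4, with their median. The points of mutant array 2 have a median of 0.41, with Tdrd5, Pld6 and Piwil1 at the top.

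The paired control of that array did not share the pattern, and 15 of the 28 genes read above the mean of the other controls on control array 2 (median 0.023). Mutant array 2 was the highest of all 8 arrays for 14 of the 28 genes, against 27.3% of 22 spermatocyte markers and 13.8% of all genes. The spermatocyte markers were raised on this array too, with 14 of 22 above the mean of the other mutant arrays, a median excess of 0.31 and 18.2% above by more than 1, against 28.6% of the pathway genes. Mutant array 1 was the highest of the 8 for 54.5% of the spermatocyte markers (median excess 0.52), for 7.14% of the pathway genes and for 22.5% of all genes. Mutant array 2 had the lowest Sertoli marker mean of the mutants (5.62) and the smallest 3' minus 5' difference of Gapdh of all arrays (0.33), and the part of these or of spermatocyte content in its readings was not tested. In pair 2, 23 of the 28 genes were higher in the mutant (median 0.39), against 15, 16 and 13 in pairs 1, 3 and 4 (medians 0.059, 0.11 and -0.050). Spermatocyte markers were higher in 17 of 22 in pair 2, with a median of 0.48, above that of the pathway genes, and in 18, 14 and 12 in pairs 1, 3 and 4, while 46.6% to 50.2% of all genes were higher in each pair. Without mutant array 2 the median difference of the 28 genes was 0.021, against 0.20 with all arrays.

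Since several of these genes read high together on that array, their start regions were searched for shared letters in the RefSeq promoter table of GRCm38.p6, which held 25 of the 28 genes (Piwil2, Pnldc1 and Rnf17 were not matched). In the 250 bases before the most upstream start of each gene, CACGTG, which reads the same on both strands, was found in 8 of 25 genes (32%), against 7.58% of the 14452 genes of the array found in the table and 6.04% of all 27025 genes in it. The 8 are Stk31, whose region is printed above, and the following, each shown as 30 bases in the direction of the gene with the E-box in capitals. Piwil1 and Tdrd9 hold a second copy that is not printed.
Pld6: ggggcgggctggCACGTGttgggcgcgcaa
Piwil1: aaaaccgccaccCACGTGgcagccaatcag
Tdrd1: gcgtgggtggggctgcgcgCACGTGggagt
Mov10l1: ccttCACGTGctaaccgccaacctctcgtg
Tdrd9: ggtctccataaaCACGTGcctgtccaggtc
Mael: taccaggcctacCACGTGacaatccccgcc
Ddx4: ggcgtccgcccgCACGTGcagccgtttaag
The stretches lie at chr11:59787673-59787702 (minus strand) for Pld6, chr5:128736055-128736084 (plus strand) for Piwil1, chr19:56826179-56826208 (plus strand) for Tdrd1, chr15:88982744-88982773 (plus strand) for Mov10l1, chr12:111971382-111971411 (plus strand) for Tdrd9, chr1:166238950-166238979 (minus strand) for Mael and chr13:112652322-112652351 (minus strand) for Ddx4. Letters of MYB-type sites were searched because the testis factor Mybl1 is known to activate piRNA pathway genes. CAACNG was found in 7 of 25 genes (28%, against 28.1% of array genes, both strands), its subset CAACTG in 2 (9.51% of array genes) and TAACNG in 6 (24%, against 17.3%). The cAMP response letters TGACGTCA were found in 0 of 25 (2.23% of array genes) and its subset TGACG in 6 (24%, against 23.1%). Of the 8 genes with CACGTG, 5 exceeded the other mutant arrays by more than 1 on mutant array 2. Ddx4 (-0.17), Mael (0.39) and Tdrd9 (0.85) hold it and did not. Of the 17 genes without it 2 did so, Tdrd5, the highest there (3.75), and Tdrkh (1.03). A link between the letters and those readings was not tested. Such matches describe letters in a window and not binding. The search of these 6 motifs was made after the values were seen, and no binding was measured here.

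Of 50 other genes of the piRNA pathway and the chromatoid body, listed by function but with earlier results of these data known, 44 were measured. Of these 2 rose and 1 fell, with 1.86% and 1.85% of all genes doing so, and 9 rose and 1 fell with the block (6.60% and 4.94% of all genes). Their median difference was 0.25, and 31 of the 44 differences were above 0. At an unadjusted p under 0.05, 11 were higher and 3 lower, beside 11.0% and 9.16% of all genes. Celf1, an RNA-binding protein of mRNA decay and splicing, read 8.69, 7.99, 7.75 and 6.82 in the mutants and 5.82, 5.49, 5.72 and 4.18 in the controls. The groups did not overlap, the level was 5.7-fold higher in mutants, and the difference of 2.51 (SE 0.45) had an adjusted p of 0.024 (limma). Its other 4 probe sets differed by -0.18, 0.24, 0.70 and 1.19, and averaging the 5 probe sets gave Celf1 a difference of 0.89 (adjusted p = 0.083).

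Tex19.1, a germ cell protein that restrains retrotransposons, rose 2.17-fold at a low level. It read 5.44, 4.63, 4.88 and 4.54 in the mutants and 3.76, 3.29, 4.09 and 3.88 in the controls, with a difference of 1.12 (SE 0.24) and an adjusted p of 0.038 in limma. With the Sertoli marker mean as a covariate its difference was 0.61 (adjusted p = 0.62, limma). The marker mean did not overlap between the groups, so that fit separates it poorly from the group. Dnmt3l, the cofactor of the DNA methyltransferases that act on piRNA-targeted transposons in fetal germ cells, fell 3.49-fold. It read 7.34, 6.08, 7.24 and 7.15 in the mutants and 9.14, 8.37, 8.87 and 8.63 in the controls, with no overlap, a difference of -1.80 (SE 0.29) and an adjusted p of 0.017 (limma; 0.046 with the covariate). Xrn1, an exonuclease of mRNA decay, had the next smallest p, with 3.28 in mutant and 3.87 in control arrays, both under the mean of 4 used as a minimum level (adjusted p = 0.069). With the replicate block the adjusted p was 0.0020 for Celf1, 0.020 for Tex19.1 and 0.0044 for Dnmt3l (limma). All 4 pairs went the same way for each of them. When single arrays were left out of the fit without a block, Celf1 missed the threshold without any of the 4 controls or mutant array 3 (adjusted p up to 0.074). Tex19.1 missed it without any array but mutant 2 or 4 (up to 0.11), and Dnmt3l without control 1, 3 or 4 (up to 0.052). Without control arrays 1 and 3 together Celf1, Tex19.1 and Dnmt3l missed it (0.11, 0.16 and 0.17). In that fit 18 of all 18193 genes rose and 50 fell, against 339 and 336 with all arrays.

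The other 7 genes that rose with the block did not pass without it. The germ cell RNA-binding proteins Dazl and Rbm46 differed by 1.57 and 1.32, and Meioc, which holds germ cells in meiotic prophase, by 0.95. Cnot7, a deadenylase subunit, differed by 0.49 and Ddx6, a helicase of mRNA decay granules, by 0.71. Prmt1, the main enzyme of asymmetric arginine methylation, differed by 1.51 and Snrpb, a spliceosome core protein with symmetrically methylated arginines, by 1.33. Their adjusted p in that fit lay between 0.015 and 0.048 (limma).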

How the data were processed

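The authors deposited log2 intensities, 1 per probe set and array, already normalized. The submitters' processing notes name GCRMA and limma with no version or role. The background correction was kept as deposited. GCRMA pulls dim readings towards a floor, so folds of dim genes are understated. The number of arrays limits the precision.

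The table holds 45101 probe sets, of which 64 controls were left out and 34945 carry 1 gene in the platform annotation. Symbols were updated through Entrez identifiers (34741 found in the GRCm38.p6 gene table). Each of 18193 genes was represented by its brightest single-gene probe set. Groups and replicate numbers come from the sample titles. The groups were fitted in limma 3.58.1 in R 4.3.3 with group as the only term, both directions, Benjamini-Hochberg adjustment over all genes and a threshold of 0.05; SE is that of the moderated model. The fit was tested on simulated data.

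Same-numbered arrays deviated together from their group means (r over genes 0.364 to 0.495 in all 4 pairs, against -0.017 at most for other numbers), so the replicate number pairs them, as the data show and no label explains. With group means taken out, a positive r for the same number makes the others negative on balance, so that contrast is partly built in. The design kept the fit without a block as the main result. The members, gene lists and alternatives were chosen with earlier results of these data known. Every member is named. Per-array values are given for members whose groups did not overlap, for the 4 highest, and for others the results turn on, which were picked after their values were seen. Of other pathway genes, those past the threshold and the next by p are named by rule, and those that rose with the block were added later. Promoter sequences come from RefSeq, build GRCm38.p6.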

Additional observations from a re-analysis of the deposited data

Results flagged for a closer look

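In 4 of 56 groups of 4 arrays, those of the 28 pathway genes, a single array lay far from the other 3 by Dixon's criterion, which chance meets in about 1 of 20 groups. Tdrd5 read 8.85 on mutant array 2, with the nearest mutant array at 5.24 and the lowest at 4.999. Pld6 read 10.42 on the same array, against 8.64 and 8.42. Among the controls, Asz1 read 9.12 on control array 1, with the nearest at 8.30, and Gtsf1 read 13.17 on control array 3, with the nearest at 13.53. Control arrays 1 and 3 are those with the large 3' minus 5' differences of Gapdh.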

How the results depend on the processing

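Each pathway gene was recomputed under 16 other settings and under 1 added after seeing the data, which left pair 2 out of the fit with the replicate block. The direction and the side of the threshold were kept in 433 of these recomputations, the threshold was newly passed in 10, and the sign turned in 30. Pathway genes that rose numbered 0 with all arrays, 2 with the replicate block and 2 with pair 2 left out of it, 1 with the mean of all single-gene probe sets, 1 with a minimum mean of 4, 1 with an intensity trend of the variance, and 0 to 1 when 1 array was left out; the 1 was Stk31 each time (without mutant array 2 or 4). Those that fell numbered 1 with the block and 0 whenever 1 array was left out. Of the other pathway genes 2 rose with all arrays, 9 with the block, 7 with pair 2 left out of it, 1 with the mean of probe sets, 1 with adjustment over probe sets, 3 with a minimum mean of 4, 3 with the intensity trend, 0 without control arrays 1 and 3, 0 with the Sertoli covariate (Celf1 differed by 2.89 there, adjusted p = 0.16), and 0 to 4 when 1 array was left out. The 1 that fell became 0 without control arrays 1 and 3 and 0 to 1 when 1 array was left out. Over all genes 339 rose and 336 fell with all arrays, and 18 and 50 without control arrays 1 and 3. With the Sertoli covariate 46 rose and 40 fell. The block fit with pair 2 left out gave 1402 risen and 862 fallen of all 18193 genes. When 1 array was left out 70 to 755 rose and 129 to 376 fell. The mean of probe sets gave 292 risen, adjustment over probe sets 189, the intensity trend 458, and a minimum mean of 4 gave 416 of 8998. The replicate block changed the call of Stk31, Snd1 and Tssc4 and of no other of the 28 genes. The adjusted p of Stk31 ran from 0.0065 to 0.24 over 17 alternatives, the highest without control arrays 1 and 3, that of Snd1 from 0.014 to 0.96 and that of Tssc4 from 0.047 to 0.54. Of the genes whose sign turned, Snd1 had an unadjusted p under 0.05 with all arrays. With the Sertoli covariate the differences became 0.12 for Ddx25, -0.027 for Ddx4, 0.41 for Henmt1, -0.15 for Snd1, 0.20 for Tdrd12, 0.43 for Tdrd3 and 0.16 for Tdrd7. The same covariate moved Piwil1 to 1.93, Piwil2 to 2.00 and Pld6 to 2.05, all short of the threshold, and the median of the 28 genes to 0.66. The marker mean did not overlap between the groups, so this fit separates it poorly from the group. Without control arrays 1 and 3 they became -0.031 for Gtsf1, -0.13 for Ranbp9, 0.050 for Rnf17 and 0.051 for Tdrd3, and Rnf17 was 0.083 with the mean of its probe sets. With pair 2 left out of the block fit they became -0.13 for Asz1, -0.043 for Piwil1, -0.011 for Pnldc1, -0.32 for Tdrd1 and -0.11 for Tdrd9. Leaving out 1 array gave ranges of -0.15 to 0.22 for Asz1, -0.042 to 0.13 for Gtsf1, -0.0062 to 0.61 for Piwil1, -0.050 to 0.61 for Pld6, -0.20 to 0.028 for Rnf17, -0.17 to 0.46 for Tdrd1, -0.20 to 0.059 for Tdrd3 and -0.0034 to 0.35 for Tdrd9. The cause of these turns was not tested. Mov10, Nanos1 and Piwil4 did not reach a mean of 4, so dim signal limits their differences.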

Other observations

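The BioB hybridisation control, a bacterial RNA added to each labelled sample, read alike on same-numbered arrays 1, 2 and 4. It read 9.32 and 9.27 on mutant and control array 1, 4.18 and 4.22 on arrays 2, and 6.90 and 6.58 on arrays 4. Arrays 3 read 3.80 and 4.36, with control array 3 nearer to arrays 2 than to mutant array 3. Transcription factors known to activate the pathway did not pass in limma: Tcfl5, a basic helix-loop-helix factor, differed by -0.015 (95% interval -0.27 to 0.24) and Mybl1 by 0.071 (-0.92 to 1.06). On mutant array 2, where many pathway genes read high, Tcfl5 read 12.95, against 12.68 to 12.85 on the other mutant arrays, and Mybl1 read 6.79, against 5.29 to 5.97, with 6.84 on control array 2. Btbd18, a further activator of piRNA loci, read 3.38 there, the lowest of the mutants, against 3.43 to 4.36, and differed by 0.23 (-0.37 to 0.83).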
